A study of Mus musculus with 16 samples.

Results

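The effect of hydroquinone that wild-type and Sucnr1 knockout mice had in common was read in the retinal pigment epithelium (RPE), the pigmented layer behind the photoreceptors. The 8 libraries whose titles carry a plus sign (hydroquinone) were set against the 8 whose titles carry a minus sign (no hydroquinone), with genotype as a factor, so that all 16 libraries of the series entered. The study used hydroquinone to bring about oxidative stress and asked about the role of SUCNR1, the receptor for succinate, in age-related macular degeneration. All mice were males on a C57BL/6 background and 40 weeks old, and none carried a further allele that the labels name. The groups were wild type untreated (4 libraries from 2 mice), wild type with hydroquinone (4 libraries from 4 mice), knockout untreated (4 libraries from 3 mice) and knockout with hydroquinone (4 libraries from 4 mice). The labels give neither the dose, route and duration of hydroquinone nor how the knockout was made. Each library came from 1 eye, whose pigmented clumps were picked with forceps from the opened eyecup, so neighboring eye tissue can be part of a sample. The eyes of a mouse were counted as separate libraries, so p-values measure the spread between libraries, part of which is spread between the eyes of a mouse.

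Total counts per library ran from 21113549 to 35332444. Sucnr1 itself held 33 reads in all. The counts were 10, 17, 0 and 1 in untreated wild type and 0, 0, 0 and 1 in wild type with hydroquinone, against 0, 0, 3 and 0 in untreated knockout and 0, 0, 1 and 0 in knockout with hydroquinone. Its level was below the floor for testing and did not check the genotype labels. RPE markers stood at a mean log2(CPM + 1) of 9.34 to 9.86 in untreated libraries and 9.21 to 9.94 with hydroquinone, so the labelled tissue was present in every library. CPM is a gene's count scaled to a library of 1e6 counts. Rod photoreceptor markers, a sign of neural retina left on the RPE, ranged from 3.82 to 9.79 without and from 3.16 to 9.63 with hydroquinone. Oligodendrocyte and myelin markers, a sign of optic nerve, ranged from 3.21 to 7.78 and from 2.92 to 7.15. Values lower with hydroquinone in both genotypes were found for all 17 rod markers, 11 of 14 oligodendrocyte, 15 of 22 other neural retina, 16 of 16 skeletal muscle and 10 of 11 tested lens markers, where 30.1% of all genes were lower in both and 29.7% higher in both. None of these markers passed. Lower at an unadjusted p below 0.05 were 1 of 14 oligodendrocyte (Aspa), 2 of 22 neural retina (Aqp4 and Slc1a3) and 1 of 11 lens markers (Mip). For rod and muscle markers the count was 0. Over all genes 2.96% were lower at such a p, and nothing is read from these counts. The marker lists were chosen with earlier results of these data known. The median log2 fold change was -0.57 for rod, -1.76 for oligodendrocyte, -0.73 for other neural retina, -0.38 for muscle and -1.04 for lens markers. For the rod and oligodendrocyte scores the model was also fitted with the score as a term; the part of the other markers in the results below was not tested.

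Hydroquinone is oxidized in cells to a quinone, which reacts with thiols and can pass electrons back and forth to oxygen. Cells answer electrophiles of this kind through NRF2, a transcription factor that is released from its repressor KEAP1 and binds antioxidant response elements in front of genes for glutathione synthesis, quinone reduction and the supply of NADPH. The RPE lives with high oxygen, light and the daily uptake of photoreceptor outer segments, and this response is well known there. The proline-rich proteins encoded by Prb1 and Prpmp5 are, by contrast, secreted proteins known mainly from saliva, and their genes are neighbors on chromosome 6.

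The sequences in front of the genes that fell most are shown first. The likeness of their transcripts, given after that of the promoters, bears on how far their values can be told apart. Each stretch holds the 100 bases before the annotated start (RefSeq, GRCm38.p6), and capitals mark the TATA box letters TATAAA, searched on the gene's strand. The Prb1 stretch is chr6:132210522-132210621 and the Prpmp5 stretch is chr6:132314744-132314843, both on the minus strand.
Prb1: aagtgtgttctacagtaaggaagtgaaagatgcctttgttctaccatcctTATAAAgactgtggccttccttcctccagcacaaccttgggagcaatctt
Prpmp5: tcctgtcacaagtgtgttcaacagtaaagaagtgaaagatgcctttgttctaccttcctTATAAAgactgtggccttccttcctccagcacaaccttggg
The letters begin 50 bases before the start in Prb1 and 41 bases before it in Prpmp5, and 8.32% of 32851 promoter windows of 300 bases hold them. Aligned over the whole windows, the pair was identical at 281 of 309 columns (90.9%), and over the printed stretches, whose ends are offset, at 88 of 109 (80.7%). Of all runs of 50 bases in the annotated transcripts, 10.6% of those of Prb1 (167 of 1572) stood in Prpmp5 without a mismatch, and 12.2% of those of Prpmp5 (152 of 1249) in Prb1. Reads from these runs cannot be assigned to either gene by sequence.

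Promoter stretches of 2 other genes show the response elements that the lists below are named for. For Txnrd1, which rose, the capitals mark letters of the antioxidant response element (TGACNNNGC, here on the opposite strand) at chr10:82859074-82859162, plus strand. For Isg15, an interferon-stimulated gene that did not pass, they mark letters of the interferon-stimulated response element (GAAA, any 2 bases, GAAA; 3 overlapping matches) at chr4:156200835-156200936, minus strand.
Txnrd1: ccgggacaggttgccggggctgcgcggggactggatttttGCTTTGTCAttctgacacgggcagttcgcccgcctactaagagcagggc
Isg15: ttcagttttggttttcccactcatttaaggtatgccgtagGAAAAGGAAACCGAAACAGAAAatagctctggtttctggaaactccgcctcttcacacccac
Searched on both strands, the antioxidant letters stood in a window of 3 of the 11 genes past the threshold that had one (Srxn1, Pgd and Txnrd1), in 17.0% of the 11644 tested genes with a window and in 12.4% of all windows. Pgd and Txnrd1 hold them only at a later annotated start inside the gene, and the window at the first start of each has no match. In Srxn1 the match begins 28 bases after the start. The interferon letters stood in 14 of 22 interferon-stimulated genes with a window and in 3.67% of tested genes with one. A match is a run of letters and not a measured site.

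Averaged over genotype, 13 of 15380 genes passed the threshold (edgeR quasi-likelihood test, Benjamini-Hochberg adjusted p below 0.05), which is 0.0845% of the genes tested. With hydroquinone 11 rose (0.0715%) and 2 fell (0.013%). Without adjustment 879 genes (5.72%) had a p below 0.05, 423 higher (2.75%) and 456 lower (2.96%). Of the 13, 7 belonged to a list of NRF2 and glutathione response genes and 6 did not. Described here from the latter are Prb1, Prpmp5, Pgd, Sytl3 and Mocs1. For 12 of the 13 genes the levels of the treatments did not overlap: all 8 hydroquinone libraries lay above, or all 8 below, all 8 untreated ones. Over all genes tested this share was 0.104%. The 13 were chosen by the same comparison, which largely fixes that count, and nothing is read from it. The remaining gene was Cbr3, with 7 of 8 hydroquinone libraries above all untreated ones.

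**Figure D1:**
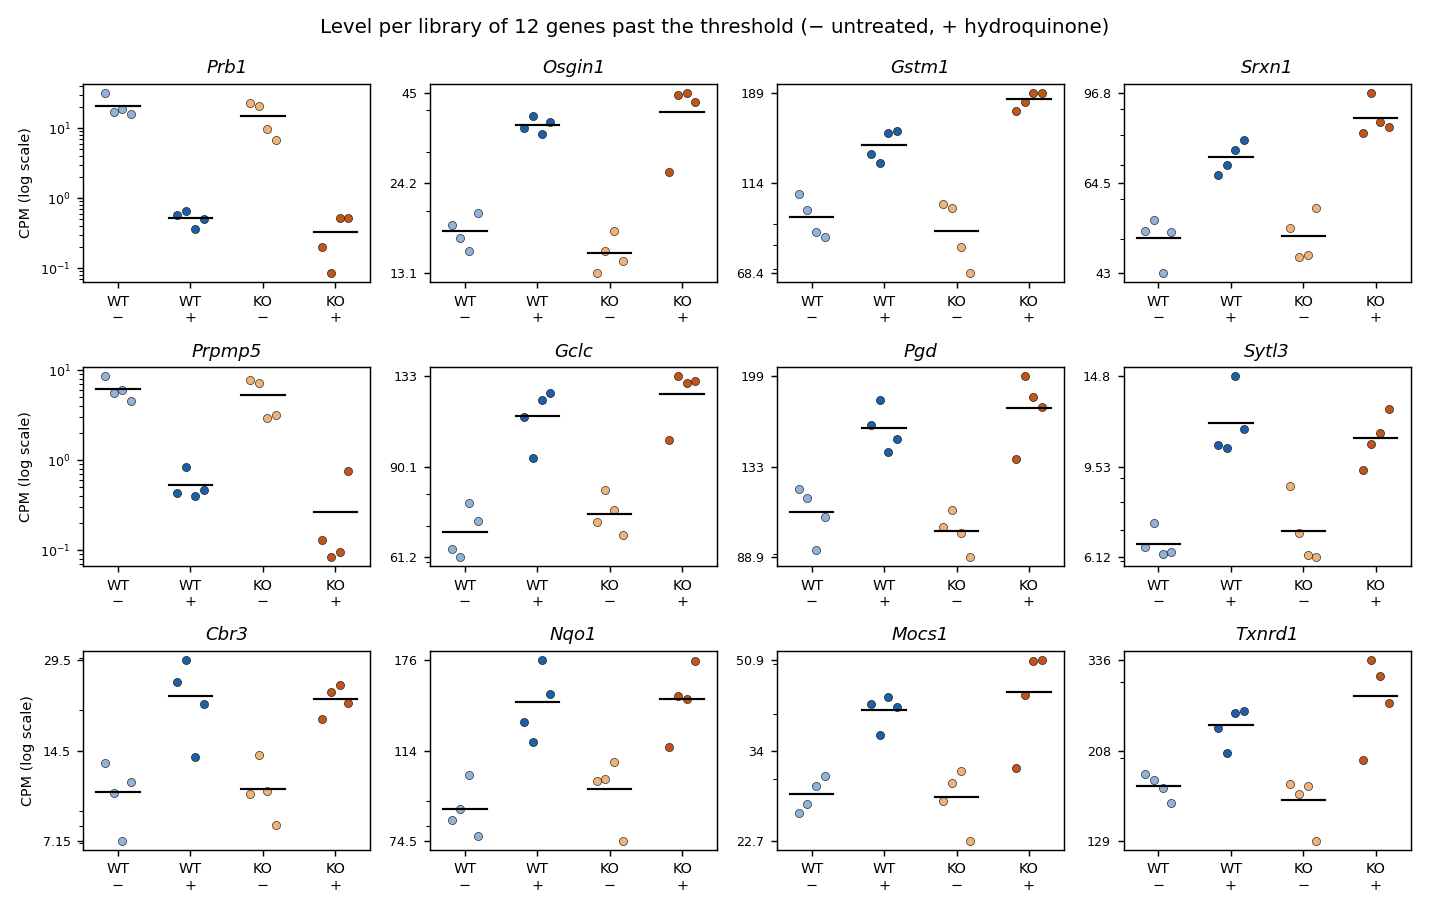
CPM (log axis) of 12 genes past the threshold in each of the 16 libraries, by genotype (WT, KO) and treatment (minus untreated, plus hydroquinone); points are libraries and bars are group means of 4. Prb1 and Prpmp5 drop in both genotypes, from at least 6.80 and 2.96 CPM to at most 0.661 and 0.834 CPM, and the other 10 genes stand higher with hydroquinone.

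The largest change was the loss of Prb1 and Prpmp5 transcripts. Prb1 (ENSMUSG00000067543, chr6:132206795-132210521) stood at 32.2, 17.1, 18.5 and 15.8 CPM in untreated wild type and at 0.572, 0.661, 0.357 and 0.510 CPM in wild type with hydroquinone. In knockout it stood at 22.7, 21.0, 9.79 and 6.80 CPM untreated and at 0.197, 0.0846, 0.517 and 0.512 CPM with hydroquinone. The lowest untreated library was thus above the highest hydroquinone library in each genotype, although untreated knockout replicates 3 and 4 were lower than the other untreated libraries. Averaged over genotype the level was 42.1-fold lower, which is -5.39 on the log2 scale (SE 0.38), with an edgeR adjusted p of 6.9e-06. The effect was -5.30 (SE 0.53) in wild type and -5.49 (SE 0.54) in knockout. No hydroquinone library was without Prb1 reads, which numbered 2 to 23 there against 182 to 956 in untreated libraries.

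Prpmp5 (ENSMUSG00000107874, chr6:132311590-132314757) stood at 8.53, 5.63, 6.08 and 4.57 CPM in untreated wild type and at 0.429, 0.834, 0.397 and 0.467 CPM with hydroquinone. In knockout the values were 7.70, 7.26, 2.96 and 3.17 CPM untreated and 0.131, 0.0846, 0.0970 and 0.768 CPM with hydroquinone. As for Prb1, the treatments did not overlap, and the same untreated knockout libraries, replicates 3 and 4, were the lowest of the untreated ones. Its log2 fold change was -3.91 (SE 0.44, edgeR adjusted p = 8.0e-04), a level 15.0-fold lower. The other 4 annotated genes of the proline-rich list (Prh1, Prp2, Smr2 and Smr3a) held 0 reads in every library. Of 19 annotated lacrimal, salivary and Harderian gland markers, 5 were expressed highly enough to be tested, none passed, and Scgb1b24, Scgb2b24, Scgb2b27 and Smgc were at 0 in all libraries. The mean log2(CPM + 1) of the 5 was 3.51 to 4.36 untreated and 3.30 to 4.37 with hydroquinone.

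Genes of the NRF2 and glutathione response rose, 7 of 50 tested past the threshold and 0 lower. Osgin1, an oxidative stress-induced growth inhibitor and known NRF2 target, stood at 18.1, 16.7, 15.2 and 19.7 CPM in untreated wild type and at 35.2, 38.2, 33.8 and 36.6 CPM with hydroquinone. In knockout it went from 13.1, 15.2, 17.4 and 14.2 CPM to 26.1, 44.1, 45.0 and 42.3 CPM. Knockout replicate 1 with hydroquinone was the lowest treated library and still above all untreated ones. The log2 fold change was 1.22 (SE 0.11, edgeR adjusted p = 1.3e-04), with 1.05 (SE 0.16) in wild type and 1.39 (SE 0.16) in knockout.

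Gstm1, a glutathione S-transferase that joins glutathione to electrophiles, stood at 107, 97.6, 86.4 and 83.8 CPM in untreated wild type and at 134, 127, 151 and 153 CPM with hydroquinone. Its knockout values went from 101, 98.6, 79.4 and 68.4 CPM to 170, 179, 189 and 189 CPM. All 4 treated knockout libraries were above all 4 treated wild-type libraries, while the untreated groups overlapped. The log2 fold change was 0.83 (SE 0.09, edgeR adjusted p = 7.0e-04). It belongs to a family of similar genes that can share reads.

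For the leading genes the eyes of a mouse were also averaged and the 13 mice compared in an exact permutation test within genotype (2-sided, 525 arrangements). The difference in mean log2(CPM + 1) was -3.60 for Prb1, -2.23 for Prpmp5, 1.16 for Osgin1 and 0.84 for Gstm1. In this exact permutation test each gene gave p = 0.0019, the smallest that the arrangements allow. These 4 genes were picked with their effect already known. Their treated and untreated libraries did not overlap, which fixes this p, and nothing is read from it.

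The other genes of the list that rose were Gclc, Srxn1, Txnrd1, Nqo1 and Cbr3. Gclc, the catalytic subunit of the rate-limiting enzyme of glutathione synthesis, ranged from 61.2 to 81.5 CPM (median 71.2) untreated and from 93.4 to 133 CPM (median 122) with hydroquinone. Srxn1, sulfiredoxin, which restores overoxidized peroxiredoxins, ranged from 43.0 to 57.7 CPM untreated and from 66.9 to 96.8 CPM treated. Txnrd1, cytosolic thioredoxin reductase, ranged from 129 to 184 CPM untreated and from 198 to 336 CPM treated. Nqo1, which reduces quinones back to hydroquinones with both electrons at once, ranged from 74.5 to 108 CPM untreated and from 116 to 176 CPM treated. Cbr3, a carbonyl reductase, ranged from 7.15 to 14.0 CPM untreated and from 13.8 to 29.5 CPM treated, the lowest treated value being that of wild-type replicate 3. Their log2 fold changes were 0.73 for Gclc (SE 0.08), 0.65 for Srxn1 (SE 0.07), 0.63 for Txnrd1 (SE 0.11), 0.67 for Nqo1 (SE 0.11) and 1.05 for Cbr3 (SE 0.17). Over the whole NRF2 and glutathione list, 22 of 50 tested genes were higher at an unadjusted p below 0.05, where 2.75% of all genes were, and 0 were lower. This list, like the others here, was chosen with earlier results of these data known, which can raise its count above that share. Gpx2, among the 22, reached the floor for testing through treated libraries (group means 0.54 and 0.53 CPM untreated, 2.15 and 2.30 CPM treated). With a floor of 5 CPM the count was 21 of 48, where 2.28% of all genes were. Within the libraries whose identifier has no letter the count was 8 (median log2 fold change 0.12), where 2.63% of all genes were higher at such a p. Within those with a letter it was 29 (median 0.47), where 8.2% were. With all libraries the median was 0.23.

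Beyond these genes, the NADPH-making limb of the pentose phosphate pathway was represented by Pgd, phosphogluconate dehydrogenase. It stood at 120, 116, 91.7 and 107 CPM in untreated wild type and at 161, 179, 142 and 151 CPM with hydroquinone. In knockout it went from 102, 110, 98.7 and 88.9 CPM to 138, 199, 182 and 174 CPM, with no overlap between treatments. Its log2 fold change was 0.67 (SE 0.09, edgeR adjusted p = 0.0037). G6pdx, the X-linked glucose-6-phosphate dehydrogenase that feeds Pgd, did not pass (log2 fold change 0.48, SE 0.09, edgeR adjusted p = 0.066), although all 8 treated libraries (110 to 148 CPM) were above all 8 untreated ones (83.4 to 103 CPM). Of the 12 tested NADPH supply genes, 1 passed (0.0715% of all genes passed as higher). Their list, too, was chosen with earlier results of these data known. At an unadjusted p below 0.05, 5 of the 12 were higher, where 2.75% of all genes were. Those 5 were Pgd, G6pdx, Me1 (malic enzyme, 0.33), Idh1 (isocitrate dehydrogenase, 0.20) and Taldo1 (transaldolase, 0.22). The median of the 12 was 0.21, against 0.0046 over all genes tested. Within the libraries without a letter in the identifier the count was 2 (median 0.12), where 2.63% of all genes were higher at such a p. Within those with a letter, with 1 treated wild-type library, the median was 0.09.

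Sytl3 and Mocs1 also rose and stood in neither response list nor the proline-rich list. Sytl3, a synaptotagmin-like protein that binds RAB27 on vesicles, stood at 6.44, 7.23, 6.20 and 6.27 CPM in untreated wild type and at 10.6, 10.4, 14.8 and 11.5 CPM with hydroquinone. Its knockout values went from 8.66, 6.90, 6.18 and 6.12 CPM to 9.40, 10.7, 11.2 and 12.6 CPM. The treatments did not overlap, though untreated knockout replicate 1 came near the lowest treated value. Its log2 fold change was 0.76 (SE 0.12, edgeR adjusted p = 0.021).

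Mocs1, an enzyme of the first step of molybdenum cofactor synthesis, stood at 25.8, 26.8, 29.0 and 30.4 CPM in untreated wild type and at 41.9, 36.4, 43.3 and 41.3 CPM with hydroquinone. In knockout it went from 27.2, 29.5, 31.1 and 22.7 CPM to 31.4, 43.7, 50.8 and 50.9 CPM. The gap between the treatments was narrow, from 31.1 to 31.4 CPM, and knockout replicate 1 with hydroquinone set its upper edge. Its log2 fold change was 0.61 (SE 0.10, edgeR adjusted p = 0.032). Aldehyde oxidase Aox1, an enzyme that needs this cofactor and stands in the NRF2 list, did not pass (log2 fold change 0.42, SE 0.13, unadjusted p = 0.0047).

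The 13 calls did not rest equally on all libraries. Prb1, Osgin1, Gstm1, Srxn1, Prpmp5, Gclc and Pgd passed in each of the 16 fits that left out 1 library. Sytl3 passed in 7 of them, Cbr3 in 6, Nqo1 in 3, and Mocs1 and Txnrd1 in 2 each. The count of genes past the threshold ranged from 7 to 15 over these fits. It was 8 without untreated wild-type replicate 1 or 2 or untreated knockout replicate 4. It was 7 without untreated wild-type replicate 4, treated wild-type replicate 4, untreated knockout replicate 3 or treated knockout replicate 2, 3 or 4. When the counts of both eyes were added up per mouse, 6 genes passed (Prb1, Prpmp5, Osgin1, Gstm1, Srxn1 and Gclc), and DESeq2 called 37, all 13 among them. With the macrophage score in the model 8 genes passed, 7 of them among the 13, and with the oligodendrocyte score 7, all among the 13. Within the libraries whose identifier has no letter 2 genes passed, Prb1 and Prpmp5, and within those with a letter 0 (edgeR, with 1 treated wild-type library there).

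The effects in wild type and knockout come from comparisons that share no library. Their p-values, however, come from 1 fit that estimates a single spread per gene from all libraries. All 13 genes moved the same way in both, with an unadjusted p below 0.05 in each. Since they were chosen by the mean of these effects, the choice largely fixes that count and nothing is read from it; over all genes 4.28% had such a p in wild type and 2.96% in knockout. Past the threshold in a single genotype was 1 gene in wild type (0.0065%, Prb1) and 7 in knockout (0.0455%). The difference of the effects (knockout minus wild type, log2) had a 95% interval that included 0 for 12 of them. For Prb1 it was -0.20 (-1.59 to 1.19), for Prpmp5 -0.78 (-2.51 to 0.95), for Osgin1 0.35 (-0.12 to 0.81), for Gclc 0.02 (-0.33 to 0.38) and for Sytl3 -0.20 (-0.69 to 0.29). Differences of the size of these bounds remain possible. The exception was Gstm1, at 0.48 (0.10 to 0.85, unadjusted p = 0.017), which did not pass after adjustment over all genes. No gene passed the interaction test (0.0% of 15380, edgeR), and 296 genes (1.92%) had an unadjusted p below 0.05.

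**Figure D2:**
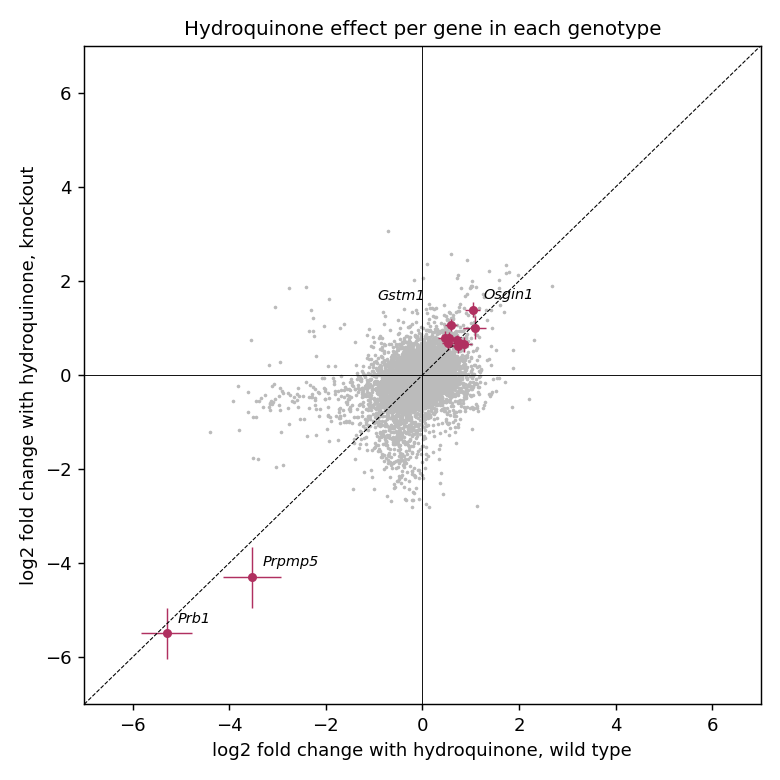
Log2 fold change with hydroquinone in wild type (x axis) and knockout (y axis) of 15380 genes (grey), with 12 genes past the threshold in red and their SE as bars; the dashed line marks equal effects. The 12 genes lie in the quadrants of shared direction, Prb1 and Prpmp5 far below all others, while across all genes r is 0.361.

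Genes chosen in 1 genotype were read in the other, where they had not been chosen. The fold changes share no library, but both p-values use the same spread per gene. A gene with a low spread tends to a small p in both genotypes. The counts at a p below 0.05 are therefore not independent readings. In wild type 18 genes had an unadjusted p below 0.001. Of these, 16 moved the same way in knockout and 12 did so with a p below 0.05 there (66.7%, where 2.22% of all genes had the wild-type direction and such a p). The pair that moved the opposite way was Ddo and Ip6k3. Outside the NRF2 list 10 of 12 kept the direction, and 6 had a p below 0.05, Prb1, Prpmp5, Pgd, Sytl3 and Lrp12 among them. In knockout 16 genes were chosen, all 16 moved the same way in wild type, and 13 had a p below 0.05 there (81.2%, where 2.98% of all genes did). Outside the NRF2 list these were 7 of 7 and 6, namely Prb1, Prpmp5, Pgd, G6pdx, Mocs1 and Srebf1.

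Genes chosen at a looser p were read the same way. Among 124 genes with p below 0.01 in wild type, 97 kept the direction in knockout and 23 had a p below 0.05, and their median size was 0.85 in wild type and 0.24 in knockout on the log2 scale. Among 81 such knockout genes, 71 kept the direction in wild type and 26 had a p below 0.05. Over all 15380 genes 59.9% had the same direction in both genotypes. Pearson's r of the fold changes across genes was 0.361 and Spearman's rho 0.311, and r was 0.358 without the NRF2 list. Genes are not independent replicates. The value was 0.087 with the oligodendrocyte score in the model and 0.145 with the macrophage score. It ranged from 0.108 to 0.448 when 1 library was left out. The lowest value was without untreated knockout replicate 4. It was 0.197 without untreated wild-type replicate 4 and 0.230 without treated knockout replicate 2.

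The genes next in line outside the NRF2 list did not pass, and 14 of them were named by a fixed rule for their shared direction, so that their direction is no finding. Of these 9 were higher and 5 lower, and 13 had an unadjusted p below 0.05 in each genotype. The choice by a small averaged p and a shared direction largely fixes this count too, and nothing is read from it. Over all genes 4.28% had such a p in wild type and 2.96% in knockout. Enpp2, which encodes autotaxin, the secreted enzyme that makes lysophosphatidic acid, was the 1 gene of the 14, besides G6pdx, whose treatments did not overlap. It stood at 2523, 3124, 3672 and 2459 CPM in untreated wild type and at 1883, 1065, 2389 and 2170 CPM with hydroquinone, and in knockout at 2695, 3246, 3039 and 2860 CPM against 1282, 1608, 1841 and 2145 CPM. All 8 treated libraries were below all 8 untreated ones, and the difference of -0.72 on the log2 scale (SE 0.16) had an edgeR adjusted p of 0.28. The other lower genes were Slc6a12, a betaine and GABA transporter (-1.24, SE 0.27), Adcy5, an adenylyl cyclase (-0.93, SE 0.20), Angptl4, an inhibitor of lipoprotein lipase (-0.85, SE 0.19), and Enho, which encodes the peptide adropin (-0.56, SE 0.12). Their edgeR adjusted p ran from 0.25 to 0.30.

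Among the higher genes that did not pass were Srebf1, the lipid synthesis regulator SREBP1 (log2 fold change 0.43, SE 0.09), Lrp12 (0.32, SE 0.06), Fetub (0.70, SE 0.15) and the aldo-keto reductase gene Akr1c14 (1.48, SE 0.31). Gch1, the first enzyme of tetrahydrobiopterin synthesis, was at 0.60 (SE 0.14), the linker histone gene H1f0 at 0.32 (SE 0.07) and the F-box gene Fbxw4 at 0.42 (SE 0.10). Ccl8, a chemokine gene, was at 1.52 (SE 0.34) with unequal effects in the genotypes. It went from 1.89, 1.52, 0.452 and 1.13 CPM to 5.93, 7.62, 2.30 and 9.09 CPM in wild type, and from 2.06, 1.99, 0.644 and 1.42 CPM to 2.92, 3.05, 2.20 and 2.00 CPM in knockout. The difference, knockout minus wild type, was -1.57 (-3.01 to -0.14, unadjusted p = 0.033), which did not pass. Over all genes, 16 (0.104%) had treated and untreated libraries that did not overlap, 11 above (0.0715%) and 5 below (0.0325%). Besides genes already named, the latter held the noncoding transcript 4933407K13Rik and the pseudogene Gm2011.

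**Figure D3:**
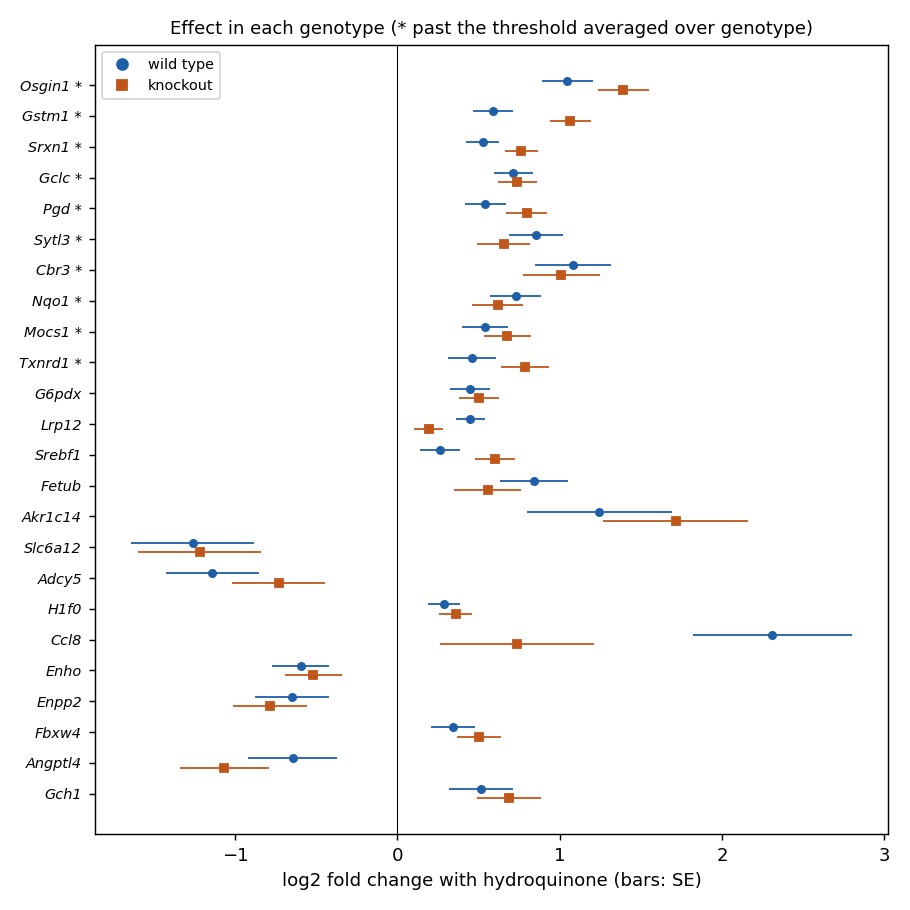
Log2 fold change with hydroquinone in wild type (circles) and knockout (squares), with SE as bars, for 10 genes past the threshold (starred) and the 14 next genes, which did not pass; Prb1 and Prpmp5 are off the scale and left out. Gstm1 and Ccl8 show the widest gaps relative to their bars, at unadjusted interaction p of 0.017 and 0.033.

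The smallest interaction p-values were those of Ddo and Gm43305. Ddo, D-aspartate oxidase, stood at 12.3, 8.95, 12.1 and 8.84 CPM in untreated wild type and at 5.65, 3.77, 5.12 and 5.14 CPM with hydroquinone. In knockout it stood at 6.36, 4.90, 8.60 and 7.21 CPM untreated and at 8.44, 7.23, 7.70 and 7.08 CPM with hydroquinone. The treatments were apart in wild type and overlapped in knockout. The difference of the effects was 1.27 (0.67 to 1.87), and neither Ddo nor Gm43305 (1.84, 0.87 to 2.80), the next gene, passed after adjustment (edgeR adjusted p = 1.00 for both).

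No gene of antigen presentation or the interferon response passed, and their values are given as counts at an unadjusted p and as medians. Both lists were chosen with earlier results of these data known, so their counts are no independent finding. Of 16 MHC antigen presentation genes, 10 were higher at an unadjusted p below 0.05 (2.75% of all genes were) and 0 lower. Values were higher in both genotypes for 14 (29.7% of all genes). Their median log2 fold change was 0.52 over both genotypes, 0.47 in wild type and 0.58 in knockout, against 0.0046 over all genes. The 10 covered class I heavy chains (H2-K1, H2-D1), class II chains (H2-Ab1, H2-Eb1, H2-Aa, and Cd74, their invariant chain), peptide loading (Tap1, Tap2, Tapbp) and Nlrc5, the class I transactivator. H2-Ab1 stood at 44.7, 51.9, 36.0 and 35.5 CPM in untreated wild type and at 57.1, 83.6, 34.1 and 95.5 CPM with hydroquinone. The level in knockout went from 54.9, 44.5, 23.1 and 20.5 CPM to 58.0, 57.6, 80.4 and 73.4 CPM. Treated wild-type replicate 3 was the 1 treated library inside the untreated range.

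Nlrc5 was at 1.33 (SE 0.38), H2-Ab1 at 0.80 (SE 0.23) and H2-Eb1 at 0.76 (SE 0.23), each with an edgeR adjusted p of 0.71 to 0.76. Genes of the same class in this region are alike and can share reads, which was not tested. Over the fits that left out 1 library, 8 to 12 of the 16 were higher at an unadjusted p below 0.05. The count was 0 within the libraries whose identifier has no letter (median 0.26), where 2.63% of all genes were higher at such a p, and 11 within those with a letter (median 0.74), where 8.2% were. The difference between the forms of identifier was not tested. Of 15 macrophage and microglia markers 12 were higher in treated libraries, where 7870 of all 15380 genes were, none of the 12 at an unadjusted p below 0.05. Their summed level was 1151 to 2767 CPM untreated and 2008 to 3880 CPM with hydroquinone. With their score in the model 10 MHC genes were at p below 0.05 and the median was 0.34.

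Of 30 interferon-stimulated genes, 13 were higher at an unadjusted p below 0.05, where 2.75% of all genes were, and 0 were lower. Values were higher in both genotypes for 25 of the 30, where 29.7% of all genes were. The median log2 fold change was 0.47 (0.46 in wild type, 0.37 in knockout). Isg15, a ubiquitin-like modifier, stood at 57.4, 31.7, 52.1 and 98.0 CPM in untreated wild type and at 177, 398, 5.40 and 63.8 CPM with hydroquinone. In knockout it went from 16.8, 35.3, 21.2 and 17.6 CPM to 99.4, 53.9, 59.4 and 25.2 CPM. Treated wild-type replicates 2 and 3 were the extremes of all 16 libraries. The count of 13 ranged from 4 to 21 when 1 library was left out, and was lowest without treated wild-type replicate 2 or treated knockout replicate 3 and highest without treated wild-type replicate 3. It was also 5 without untreated knockout replicate 4, 7 without untreated wild-type replicate 2 and 8 without untreated wild-type replicate 1, treated wild-type replicate 1, untreated knockout replicate 1 or treated knockout replicate 1. With the counts of both eyes added up per mouse it was 3, where 1.76% of all genes were higher at such a p. Without the 2 libraries with the fewest detected genes it was also 3, where 2.37% were. The count was 6 (median 0.34) in limma with mouse fitted as a random effect, and 7 with the identifier form or the oligodendrocyte score in the model. Within the libraries without a letter in the identifier it was 1 of 30 (median 0.495), where 2.63% of all genes were higher at such a p. Within those with a letter, with 1 treated wild-type library, the median was 0.24.

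No lymphocyte or mast cell marker, from a list also chosen with earlier results known, passed in the same contrast. Of 14 such genes 8 could be tested, and all 8 had higher values in both genotypes, where 29.7% of all genes did. Nkg7 reached the floor for testing only through treated libraries (group means 0.90 and 0.35 CPM untreated, 1.49 and 1.53 CPM treated). The floor thus favors genes that are high with treatment, and nothing is read from that count. An unadjusted p below 0.05 was found for 4 (Cd8a, Cd4, Cpa3 and Nkg7), where 2.75% of all genes were higher at such a p. With a floor of 5 CPM it was 2 of 6 (2.28% of all genes). The count was 2 with summed eyes (1.76% of all genes) and 0 within the libraries without a letter in the identifier (2.63% of all genes). The median log2 fold change was 0.37 within the latter. It was 1.03 within those with a letter, with 1 treated wild-type library. The 14 genes, tested or not, summed to 49.4 to 104 CPM untreated and 82.3 to 157 CPM with hydroquinone. Much of this was Kit, at 34.1 to 59.0 CPM untreated and 38.0 to 101 CPM with hydroquinone. Cd3d, Cd3e, Cd79a, Ms4a1 and Fcer1a were below 1 CPM on average. With the macrophage score in the model 1 of the 8 was at p below 0.05. In bulk RNA more cells of a type and more RNA per cell cannot be told apart. Their part in the MHC and interferon values was not tested.

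**Figure D4:**
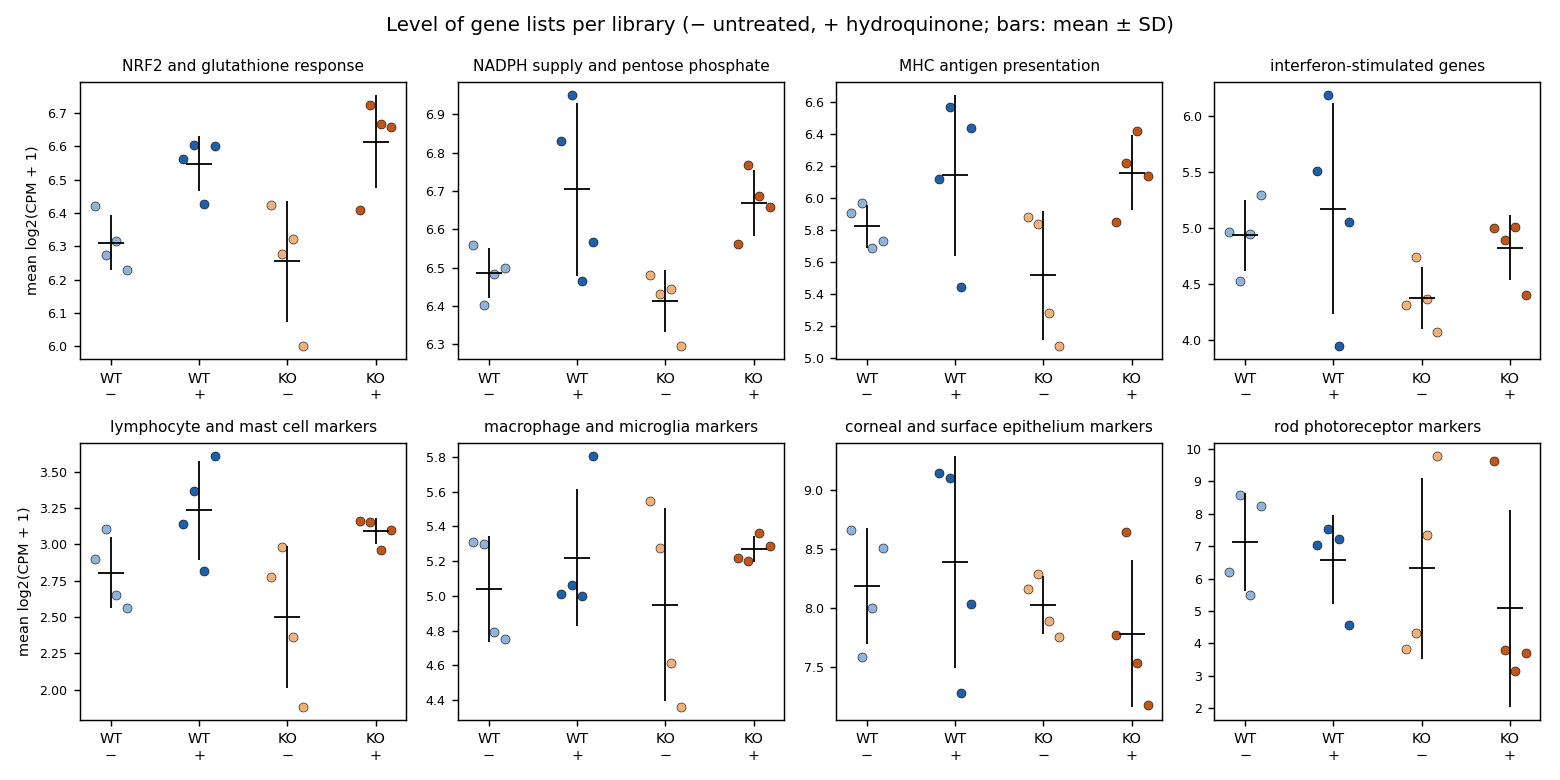
Mean log2(CPM + 1) of the tested genes of 8 lists in each library, by genotype (WT, KO) and treatment (minus untreated, plus hydroquinone); bars are the mean and SD of 4 libraries. The MHC list ranges from 5.07 to 5.96 untreated and from 5.44 to 6.57 with hydroquinone, and rod markers span most of their range within single groups.

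In the lists of most other RPE functions no gene was called. None of the tested genes of the visual cycle (13), melanin synthesis and melanosomes (17), RPE channels and transporters (27), tight and adherens junctions (22), complement (21), collagens, laminins and basement membrane (35), heat shock and chaperones (23), or p53, DNA damage and senescence (26) had an unadjusted p below 0.05 in either direction. Neither did any of the 14 tested genes of the list of the aryl hydrocarbon receptor and phenol conjugation. That list includes enzymes that could sulfate or glucuronidate hydroquinone, and it has 23 annotated members. Not tested, being below the floor, were Cyp1a1, Cyp1a2, Mpo, Nat1, Sult1d1, Ugt1a1, Ugt1a2, Ugt1a6a and Ugt1a6b. There Sult1a1 was at -0.23 (SE 0.12), Ugt1a7c at 0.64 (SE 0.32) and the receptor gene Ahr at 0.22 (SE 0.19). The unfolded protein list had 3 of 31 genes higher at an unadjusted p below 0.05, Edem1 (0.25), Xbp1 (0.18) and Trib3 (0.47), none past the threshold. Over all genes 2.75% were higher and 2.96% lower at such a p. Immediate early genes had 2 of 25 higher at such a p, Atf3 (0.51) and Myc (0.75), and 1 lower, Nr4a3 (-0.56). Counts this small are near those shares, and nothing is read from them.

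No subunit of the respiratory chain had an unadjusted p below 0.05. Of 31 genes 17 had lower values in both genotypes, against 30.1% of all genes, and the median was -0.07. Uqcrc2, a complex III core subunit, was at -0.13 (SE 0.07) and Ndufv2, a complex I subunit, at -0.17 (SE 0.10). Of the outer segment phagocytosis genes, Mfge8, the bridging ligand that couples outer segments to integrin on the RPE, was at 0.41 (SE 0.12, edgeR adjusted p = 0.68), and Gas6, a ligand of the receptor MERTK, at 0.25 (SE 0.10). Neither passed. Heme oxygenase Hmox1 was at 0.65 (SE 0.12, edgeR adjusted p = 0.066), with 0.31 (SE 0.17) in wild type and 0.98 (SE 0.17) in knockout. The difference between the genotypes was 0.67 (0.17 to 1.17, unadjusted p = 0.012), which did not pass after adjustment.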

How the data were processed

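RNA from the RPE of 1 eye per library was sequenced (16 libraries). The deposited table holds whole-number counts per Ensembl gene, made by the authors; the submitters' processing notes name STAR, Cufflinks, DESeq2 and mm10 without roles or versions. Strand use is not given in the sources used here. Of 51912 identifiers 51719 matched GENCODE vM21 (GRCm38), used for symbols and coordinates.

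Genes with a mean CPM of at least 1 over all libraries were tested (15380, 99.8% of counts) with edgeR 4.0.16 (R 4.3.3): TMM scaling, 4 group means, quasi-likelihood F test, Benjamini-Hochberg adjustment over all tested genes. The hydroquinone effect is the mean of the differences in wild type and knockout. SEs come from the F statistic. CPM values use TMM-scaled library sizes. On simulated counts (15380 genes, 200 of them changed) the test found 72% of 2-fold and 90% of 4-fold changes, and 11 of its 173 calls were false. The simulated libraries were independent draws around 1 mean per gene. They had no shared eyes, genotype differences or carry-over common to many genes, so recovery in the real libraries can differ.

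The labels' protocol gives 4 animals per group, but titles name 13 mice, 3 with both eyes, and were followed. Replicate numbers follow accession order. No library of a group was a copy of another (chi-square per degree of freedom at least 21.9).

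Members and the 30 pathway and 16 marker lists were chosen with earlier results of these data known. Named genes were all past the threshold (at most 30), the 14 next outside the NRF2 list with 1 direction, the 2 smallest interaction p, up to 3 per list by p, Sucnr1 and the leading genes; 4933407K13Rik, Gm2011, Ip6k3 and further list members were named after their values were seen. A few results under this rule are not reported here. Alternatives: other scaling and filters, DESeq2 1.42.0, limma 3.58.1, summed eyes, score covariates, identifier forms and left-out libraries.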

Additional observations from a re-analysis of the deposited data

Results flagged for a closer look

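Values that stood apart in a group of 4 libraries (Dixon's ratio above 0.829) were searched in 172 sets of 43 genes and lists, where chance alone flags about 8.6, and 11 were found. All levels here are log2(CPM + 1).

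In treated knockout replicate 1, Osgin1 was low at 4.76 (others 5.44 to 5.52), as were Gclc at 6.67 (others 7.02 to 7.06) and Gch1 at 3.54 (others 4.18 to 4.21). The same library was high in rod markers at 9.63 (others 3.16 to 3.81) and in other neural retina markers at 5.83 (others 3.38 to 3.68). Without it 15 genes passed, all 13 among them. In treated knockout replicate 4, Prpmp5 was high at 0.82 (others 0.12 to 0.18).

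In treated wild-type replicate 4, rod markers were low at 4.57 (others 7.02 to 7.53) and macrophage markers high at 5.81 (others at most 5.06). In treated wild-type replicate 1, oligodendrocyte markers were high at 5.87 (others 2.92 to 3.30). In untreated wild-type replicate 3, Angptl4 was high at 3.73 (others 3.25 to 3.28) and gland markers low at 3.51 (others 4.19 to 4.25).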

How the results depend on the processing

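Counts of genes past the threshold were within 1.5 times of 13 with other scaling, filters, limma, an additive model and the rod, corneal and identifier-form covariates. They were 37 with DESeq2, 6 with summed eyes, 8 with the macrophage score, 7 with the oligodendrocyte score (added after seeing the data), 2 without and 0 with a letter in the identifier, and 7 to 15 leaving out 1 library. The correlation across genes (0.361) was 0.05 without a filter on low counts, 0.145 with the macrophage score, 0.087 with the oligodendrocyte score, and 0.108 to 0.448 leaving out 1 library. The causes were not tested. Of 834 values of 27 named genes over 31 alternatives, 687 kept their side of the threshold, 22 gained it, 125 lost it and 0 turned direction. No paired analysis was possible because the labels number no replicates across groups; the consensus correlation of eyes of a mouse was -0.02. With 5 untreated mice, smaller shared effects can be missed. The 2-fold recovery of 72% holds for independent simulated libraries and not for eyes shared by a mouse.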
